A study of Mus musculus with 6 samples.

Results

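The cells described here are stefin-high mature neutrophils from liver micrometastasis, 1930 of the 23008 CD45+ cells of the series and of the 10248 cells of the micrometastasis matrix. They were chosen by measured values. A cell was taken when the mean deposited score of Csf3r, Cxcr2, G0s2 and Hdc was above 0.4, that of Fcnb, Ltf and Cebpe was below 0.5, and that of Stfa2, Stfa3, Cstdc4, Csta2 and Prok2 (the stefin mean) was above 0.5. Cells that met the first and second conditions are called mature neutrophils, and those of them that failed the third, 1189 cells, are called stefin-low.

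In the study, Balb/c mice were given the mammary tumour line 4T07 by intracardiac injection. The tumour cells were controls (Ctrl) or carried a Tim3 knockdown (Tim3-KD). The host's own cells, including the neutrophils, were not knocked down. Single-cell RNA-seq was run on CD45+ cells sorted from micrometastasis (day 3), macrometastasis (day 12) and tumour-free adjacent tissue (day 3), with 1 library of pooled mice for each site and tumour line. No group had a replicate, so no difference was tested and no p-value is given. The intervals are 95% exact intervals of counts (Newcombe intervals for differences of shares) and cover counting error only, not the spread between mice. Levels are CPM, the unique molecular identifiers (UMIs) of a gene summed over the cells of a group and scaled to a common total.

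Neutrophils mature in the bone marrow and fill their granules in order, first azurophil granules with proteases such as elastase, then secondary granules with lactoferrin, then tertiary granules with gelatinase. They leave for the blood under the control of Cxcr2 and Csf3r, the receptors for CXC chemokines and for G-CSF. Stefins are small cytosolic inhibitors of cysteine proteases such as the cathepsins, and the mouse has a family of stefin A genes where the human genome has a single copy. Prok2 encodes prokineticin 2, a small secreted protein found in neutrophils.

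Of the 14 mature neutrophil markers, 10 were in the matrix and all 10 had UMIs in the members of both libraries. Their summed level was 14693 CPM in Ctrl members and 10944 CPM in those of Tim3-KD. The rule had used 6 of the 10, so that sum was fixed by the choice of cells. The other 4, Mmp9, Il1r2, Cxcr4 and Ly6g, summed to 2756 and 2541 CPM, against 107 and 89.4 CPM in lymphoid cells, where Cxcr4 gave most of it. Dendritic cell markers were at 0.380 and 0.576 CPM, with 4 and 3 of the 5 genes at 0. NK markers were at 1.01 and 0.412 CPM. Markers of monocytes, all 7 detected, summed to 139 and 148 CPM, with 3 or more UMIs in 144 and 239 members (17.1% and 22.0%), and the 8 Kupffer cell markers, all detected, to 22.0 and 56.2 CPM, with 3 or more Kupffer UMIs in 5 and 16 members. The sum of 9 neutrophil precursor markers differed more, 1204 CPM in Ctrl members against 2219 CPM in Tim3-KD members, with 3 or more UMIs in 130 and 284 members (15.4% and 26.1%). Of the 7 T cell markers 2 were at 0 in each library, and Cd3d alone gave 40.6 of the 41.8 CPM in Ctrl and 65.0 of the 65.6 CPM in Tim3-KD.

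Members of Ctrl were nearly as deep as their whole library, with a median of 7089 UMIs per cell against 7531 over all cells, and those of Tim3-KD were shallower, 7255 against 9359.5. Stefin-low cells were shallower, 4774 and 4734. A doublet score over 0.15 was found in 43 members of Ctrl, 5.10%, and in 120 of Tim3-KD, 11.0%, against 2.78% and 5.83% over all cells, after the authors had already removed doublets. The 2 libraries of micrometastasis shared 7 barcodes, 4 of them in members. Havcr2, which encodes Tim3, had 9 UMIs in the Ctrl members and 7 in the Tim3-KD members. The knockdown was in tumour cells, which the sort left out, so these counts check no label.

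The 8 stefin A genes of the matrix lie side by side on chromosome 16, between positions 36156811 and 36455392 of GRCm38, a span of 299 kb. RefSeq promoter windows were found for 7 of them. The windows below run from 110 bases before to 20 bases after the annotated start, on the strand of each gene and with the build GRCm38.p6. Capitals mark a pair of 13-base strings, ACCTTTAAAACCC and GATCATTTCTTCT, that are among the longest found in 6 of the 7 windows of 300 bases. They are shown because most of the stefin genes share both, and Csta2 is shown as the one window without them.
Stfa2, chr16:36408344-36408473, minus strand: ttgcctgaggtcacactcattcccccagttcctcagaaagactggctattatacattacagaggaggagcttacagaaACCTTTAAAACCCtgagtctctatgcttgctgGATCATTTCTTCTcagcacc
Stfa3, chr16:36455373-36455502, minus strand: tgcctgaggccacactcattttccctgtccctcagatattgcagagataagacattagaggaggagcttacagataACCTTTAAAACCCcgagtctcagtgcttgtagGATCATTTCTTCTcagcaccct
Cstdc4, chr16:36184102-36184231, plus strand: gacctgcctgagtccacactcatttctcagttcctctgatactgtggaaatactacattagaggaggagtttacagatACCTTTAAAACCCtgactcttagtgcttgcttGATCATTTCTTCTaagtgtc
Stfa2l1, chr16:36156701-36156830, plus strand: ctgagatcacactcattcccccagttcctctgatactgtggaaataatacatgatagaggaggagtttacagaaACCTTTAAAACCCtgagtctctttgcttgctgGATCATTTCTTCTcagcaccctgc
Stfa1, chr16:36277038-36277167, plus strand: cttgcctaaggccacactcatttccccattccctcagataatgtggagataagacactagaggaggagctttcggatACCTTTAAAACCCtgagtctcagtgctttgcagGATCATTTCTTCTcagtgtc
Csta2, chr16:36221452-36221581, plus strand: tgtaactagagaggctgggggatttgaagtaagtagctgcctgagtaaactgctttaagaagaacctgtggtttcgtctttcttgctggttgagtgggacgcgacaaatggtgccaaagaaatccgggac

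Both strings stood in 6 of the 7 promoters, those shown except Csta2 and that of Csta3. On either strand, the first was found in 0.0274% and the second in 0.0304% of 32851 RefSeq promoters of 300 bases, the 6 included, and the TTTAAA inside the first in 13.2%. The first string began 32 bases before the start in Stfa2 and Cstdc4, 33 in Stfa1, 34 in Stfa3 and 36 in Stfa2l1, and 80 bases before it in Csta3. The window of Csta2 holds neither string, which says only that these letters are not there.

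The genes are alike in their transcripts as well, which bears on how reads were assigned. Over the shorter transcript of each pair, Stfa1 and Cstdc6 were 95.3% identical and Cstdc4 and Csta2 94.9%. Of the 90-base stretches of Cstdc4, 15.4% were also in Csta2, and 16.4% of those of Cstdc6 and 7.39% of those of Stfa1 were in Cstdc5. Csta3 and Stfa3 had none in common with another gene of the cluster. The matrix held a joint feature of Csta2 and Cstdc4 as well, at 2344 CPM in Ctrl members and 1889 CPM in Tim3-KD members. The levels of Csta2, Cstdc4, Cstdc6 and Stfa1 are therefore uncertain as to how the reads were divided.

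The 8 stefin A features together made up 2.14% of all UMIs of the members in Ctrl and 1.75% in Tim3-KD, and 0.333% and 0.337% in stefin-low cells. Per cell, their sum had a median of 204 UMIs per 10000 in Ctrl, with quartiles of 116 and 308, and of 188 in Tim3-KD, with quartiles of 107 and 277. The highest single cells reached 736 and 774. A median member held UMIs of 6 of the 8 features in Ctrl and 7 in Tim3-KD, a stefin-low cell of 3 in each. The members thus differed widely among themselves in their stefin content.

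The 4 stefins of the rule were, by the choice of cells, higher in members than in stefin-low cells. Cstdc4 had 6687 and 5434 CPM (Ctrl first, then Tim3-KD, here and below), against 747 and 805 CPM in stefin-low cells. Stfa2 was at 5988 and 4829 CPM, against 601 and 756 CPM. Stfa3 was at 2542 and 2462 CPM, against 131 and 216 CPM, and Csta2 at 457 and 392 CPM, against 26.1 and 24.6 CPM. In members the Ctrl library held the higher level of each of these genes, with ratios of Tim3-KD to Ctrl from 0.806 for Stfa2 to 0.968 for Stfa3. Prok2 was at 552 and 358 CPM, against 208 and 188 CPM.

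The 4 stefins that the rule did not use followed them. Stfa2l1 was at 5122 CPM in Ctrl members and 3853 CPM in Tim3-KD members, against 1648 and 1407 CPM in stefin-low cells. Cstdc6 was at 414 and 410 CPM, against 114 and 113 CPM. Csta3 was at 109 and 68.9 CPM, against 43.4 and 26.7 CPM, and Stfa1 at 69.0 and 68.2 CPM, against 16.5 and 18.8 CPM. All 8 stefin features were thus at least 2-fold higher in members in both libraries, with medians of 2.61 and 2.27 on the log2 scale. Over all 1757 genes with at least 50 UMIs in the sums of each library, 0.455% were at least 2-fold higher in both libraries, which is the 8 stefins and no other gene, and the medians were -0.48 and -0.49. The cells were chosen on stefins, so nothing is read from this difference.

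**Figure D1:**
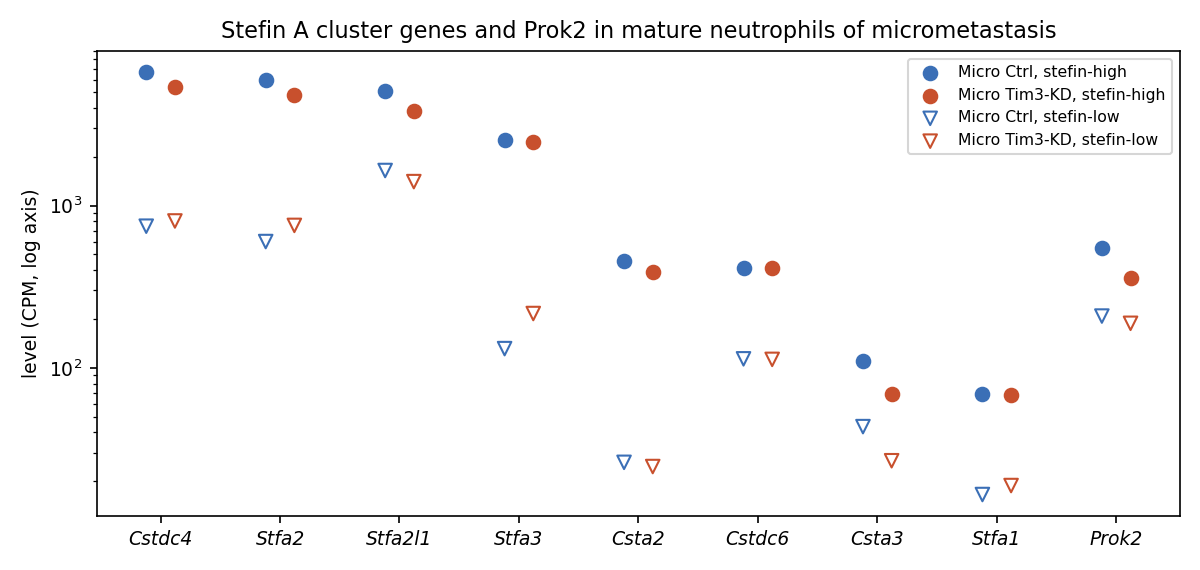
Level (CPM, log axis) of the 8 stefin A cluster genes and Prok2 in mature neutrophils of micrometastasis, with 1 point per library; filled circles are stefin-high cells, open triangles stefin-low cells, blue Ctrl and orange Tim3-KD. For each gene the circles lie above the triangles, and for Stfa2 they stand at 5988 and 4829 CPM over 601 and 756 CPM.

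Free RNA in the droplets can give a UMI to cells that do not express a gene. After each cell was thinned to 1500 UMIs, Stfa2 was found in 92.6% of Ctrl and 94.6% of Tim3-KD members, against 1.36% and 0.713% of 956 and 421 lymphoid cells of the same libraries, which should lack it. The rule used Stfa2, so its share in members was set by the choice of cells. Stfa2l1, which the rule did not use, was found in 92.1% and 92.6% of members and in 1.36% and 0.238% of lymphoid cells. The lymphoid cells had medians of 4193.5 and 4289 UMIs.

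Across the 1930 members, UMIs per 10000 of pairs of stefins were related to different degrees, given here as a description over cells that share 2 libraries. Pearson's r was 0.72 for Cstdc4 and Csta2, which share part of their reads, 0.60 for Stfa2 and Stfa3, 0.57 for Cstdc4 and Stfa2l1, and 0.01 for Csta3 and Stfa1. Cstdc4, Csta2, Stfa2 and Stfa3 are genes of the rule, so the choice of cells bears on these values.

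The stefin mean is a range and has no gap at 0.5. Within 0.1 of it lay 50 cells inside and 52 outside in Ctrl, and 51 inside and 75 outside in Tim3-KD. The nearest cells had stefin means of 0.502 and 0.501 inside and of 0.497 and 0.499 outside. In Ctrl, Stfa2 was at 1655 CPM just inside and 1554 CPM just outside, and Cstdc4 at 1889 and 1481 CPM. In Tim3-KD, Stfa2 was at 1460 CPM inside and 1619 CPM outside, and Cstdc4 at 1776 and 1314 CPM.

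Stefin-high cells took a larger share of the cells in Tim3-KD than in Ctrl. They were 843 of 5106 cells of the Ctrl library, 16.5% (15.5 to 17.6), and 1087 of 5142 cells of the Tim3-KD library, 21.1% (20.0 to 22.3), a difference of 4.63 points (3.12 to 6.14). Of the mature neutrophils they were 843 of 1488 in Ctrl, 56.7% (54.1 to 59.2), and 1087 of 1631 in Tim3-KD, 66.6% (64.3 to 68.9), a difference of 9.99 points (6.58 to 13.4). Mature neutrophils as a whole were 29.1% and 31.7% of the cells, a difference of 2.58 points (0.795 to 4.36). With a neutrophil threshold of 0.2 in place of 0.4 the difference in the share of all cells was 6.18 points. In adjacent tissue, scored on its own scale, 283 of 1803 Ctrl cells and 4 of 542 Tim3-KD cells met the rule, the latter too few to describe.

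**Figure D2:**
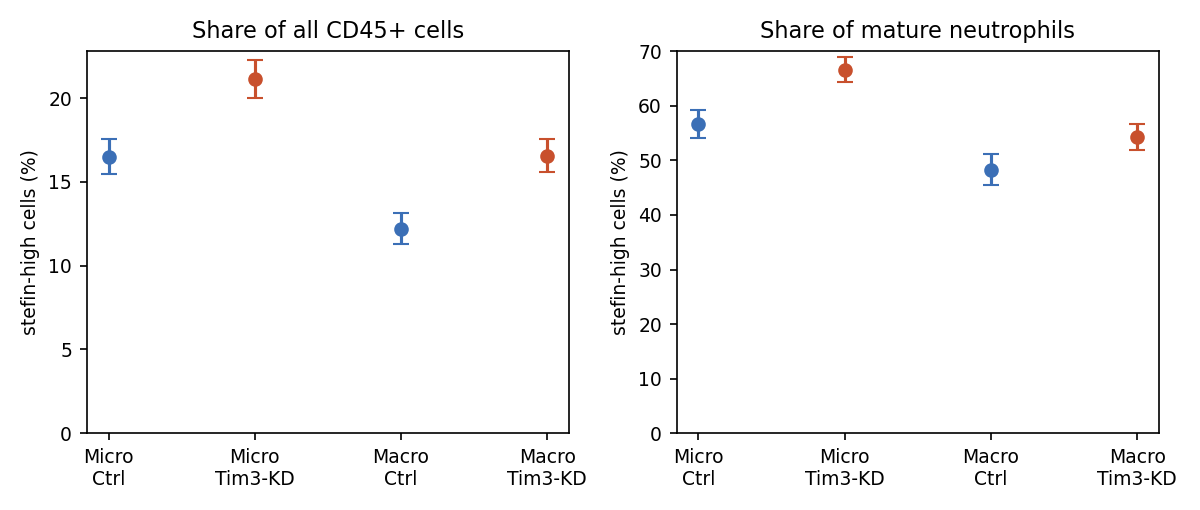
Stefin-high cells as a percentage of all CD45+ cells (left) and of mature neutrophils (right), 1 point per library with its 95% exact binomial interval; blue is Ctrl and orange Tim3-KD. In micrometastasis the shares were 16.5% and 21.1% of cells and 56.7% and 66.6% of mature neutrophils. The intervals cover counting error only, not the spread between mice.

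Against stefin-low cells, no gene other than the stefins was at least 2-fold higher in members of both libraries when levels were set per total UMIs, and the genes that were lower included most of the monocyte and macrophage genes tested. Set against the median of all genes, 17 of 1757 tested genes, 0.968%, were higher. Among them were Cd177 and Ly6g of 7 secondary granule genes and Ceacam10 of 12 receptors, but none of 16 sensing receptors. Padi4 and Mmp25, of the 6 genes listed under tertiary granules and secretory vesicles, were among them as well. Of the 7 azurophil granule genes 3 were at least 2-fold lower in both libraries on either scale, with medians of -4.11 and -1.09 per total UMIs. This split was made on measured values of the same cells, so it is described and not tested. Other than shares and CPM, the values are log2 ratios of levels, Ctrl first and Tim3-KD second. The median of all genes lay at -0.48 and -0.49. After the 4 other stefins, ranked by the library with the smaller ratio, came Padi4, the enzyme that citrullinates histones in neutrophils, at 0.80 and 0.79, Cd177, a surface glycoprotein of neutrophils, at 0.85 and 0.71, Ggt1, which cleaves glutathione, at 1.29 and 0.63, and Mmp25, a membrane-bound protease, at 0.87 and 0.58. Ly6g, the antigen by which mouse neutrophils are sorted, was at 0.56 in both libraries, or 572 and 644 CPM in members against 388 and 437 CPM in stefin-low cells. Ifitm6, Ceacam10 and Dnah8 completed the 12 highest. Of these 8 genes, per total UMIs, Ggt1 was past 2-fold in Ctrl and none was in both libraries. Set against the medians, all but Dnah8, at 1.47 and 0.98, were past 2-fold in both.

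Of the tested genes 10.8% were at least 2-fold lower in members in both libraries, 190 genes, and 86 relative to the medians. Scaled to the trimmed mean over genes in place of total UMIs, 18 genes were higher and 83 lower, against 8 and 190. The lowest ratios belonged to genes of monocytes and macrophages, among them Ccr2, the receptor that brings monocytes to tissue, Fn1, fibronectin, Irf8, a transcription factor of the monocyte lineage, and Pld4, Ms4a6c, S100a4, Crip1, Cd5l and C1qa. C1qa, a complement gene of Kupffer cells, was at 4.56 and 12.6 CPM in members and at 35.2 and 263 CPM in stefin-low cells. Of 15 monocyte and macrophage genes 12 were lower in members. The Kupffer marker sum was 22.0 and 56.2 CPM in members against 138 and 891 CPM in stefin-low cells, so stefin-low cells held more RNA of another cell type. The sum of precursor markers, some of which the rule limits in both sets of cells, was 3115 CPM in Ctrl stefin-low cells, against 1204 CPM in members, and 2112 CPM in those of Tim3-KD, against 2219 CPM. The part of either in the other differences was not tested.

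Of 29 cytokine, chemokine and mediator genes 9 were at least 2-fold lower in members, and of 32 immediate early and stress genes 10, against the 10.8% of all genes. Set against the medians these were 3 and 2, against 4.89% of all genes, so most genes of both lists did not pass. Ccl4, a chemokine for monocytes and T cells, was at 168 and 69.8 CPM in members and 621 and 283 CPM in stefin-low cells. Ccrl2, a receptor that binds chemerin, was at 998 and 551 CPM against 2428 and 1216 CPM. Atf3, a stress-induced transcription factor, was at 104 and 92.8 CPM against 367 and 237 CPM. Il1b, the cytokine interleukin 1 beta, was lower by less, 3863 and 1572 CPM against 7118 and 2750 CPM. Set against the medians, the log2 ratios were -1.41 and -1.53 for Ccl4 and -0.81 and -0.65 for Ccrl2. They were -1.34 and -0.86 for Atf3 and -0.41 and -0.32 for Il1b, so of these Ccl4 alone was past 2-fold in both libraries. Receptors varied, given here per total UMIs. Il1r2, the decoy receptor of interleukin 1, was at log2 ratios of -0.05 and -0.21, Cxcr4 at -1.71 and -0.98 and Icam1 at -1.43 and -1.37, while Csf3r, at -0.35 and -0.34, is a gene of the rule that both sets of cells had to pass.

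Over 6 bins of the stefin mean (up to 0, 0.5, 1, 1.5, 2 and above), with 153 to 377 cells in each bin of Ctrl and 162 to 337 in each of Tim3-KD, 3 of 1276 genes were higher at every step in both libraries and 53 lower, with the rule's genes left out. The 3 were stefins, and the bins were cut on the mean of other stefins and Prok2, so nothing is read from their rise. Levels were per total UMIs and were not set against a median over genes, which bears on the count of lower genes. From the first to the last bin, the log2 differences were 3.92 and 3.39 for Stfa1, 3.43 and 3.24 for Cstdc6, and 2.78 and 2.93 for Stfa2l1. Among the 53, Icam1, the endothelial adhesion ligand that activated neutrophils also carry, differed by -3.23 and -3.51, Clec4n, a receptor for fungal sugars, by -3.68 and -3.07, Atf3 by -3.91 and -2.79, and Cxcr4, the receptor that returns aged neutrophils to the marrow, by -3.72 and -1.96. Lgmn, a lysosomal cysteine protease of macrophages, and Lgals1, a galectin, had the largest differences. Il1b went from 8827 CPM to 2182 CPM in Ctrl and from 3028 CPM to 876 CPM in Tim3-KD. In each of the 6 bins Il1b was lower in Tim3-KD than in Ctrl.

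**Figure D3:**
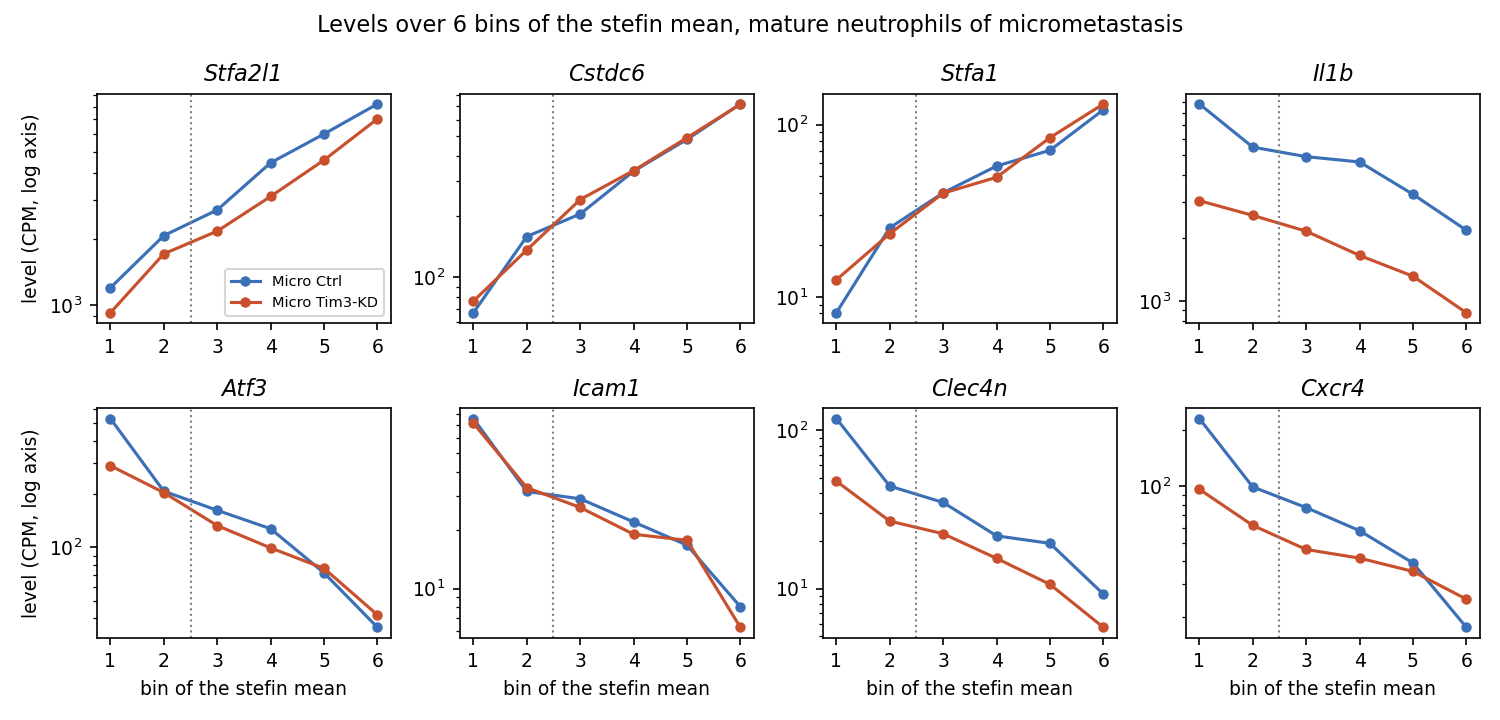
Level (CPM, log axis) of 8 genes over 6 bins of the stefin mean in mature neutrophils of micrometastasis, blue Ctrl and orange Tim3-KD; cells to the right of the dotted line are stefin-high. Stfa2l1, Cstdc6 and Stfa1 are higher at each step, and the other genes are lower at each step, with Il1b ending at 2182 CPM for Ctrl and 876 CPM for Tim3-KD.

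Between members of the Tim3-KD and Ctrl libraries, 1875 genes had at least 50 UMIs in the sums. Of these, 3.52% were at least 2-fold higher in Tim3-KD, 66 genes, and 2.77% at least 2-fold lower, 52 genes, with a median log2 ratio of -0.05. Cytokine and immediate early genes had more members lower than higher, and azurophil granule, cell cycle and macrophage genes more higher than lower, of which the last 3 depended on which cells were kept. In 26 of the 66 higher genes, 10 cells held over 50% of the Tim3-KD UMIs. This held for 8 of the 52 lower genes in Ctrl, and for 96 and 199 of all 1875 genes. Without cells of a doublet score over 0.15, 46 of the 66 and 47 of the 52 were still past 2-fold, with totals of 51 higher and 57 lower. With the rule on recovered UMIs these were 43 and 39, with totals of 44 and 47, and by the mean over cells 43 and 41. A stefin threshold of 1 left 54 and 39.

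The largest inflammatory difference by amount was in Il1b. Ctrl members held 3863 CPM and Tim3-KD members 1572 CPM, 2.46 times as much in Ctrl (2.41 to 2.502). Thinned to 1500 UMIs, 89.2% of Ctrl and 75.3% of Tim3-KD members held a UMI of Il1b, against 4.39% and 3.56% of lymphoid cells, far below the members' shares. In stefin-low cells Il1b was at 7118 and 2750 CPM, and over the whole libraries at 1610 and 558 CPM, lower in Tim3-KD in each.

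Among cytokines, chemokines and mediators, 5 of 29 tested genes were lower by at least 2-fold and 2 higher, with a median of -0.33. Of all genes 2.77% were lower and 3.52% higher. Without G0s2, Prok2 and Hdc, genes of the rule, 4 of 26 were lower. Besides Il1b, Cxcl3, a chemokine that attracts neutrophils through Cxcr2, had 98.1 CPM in Ctrl members and 15.7 CPM in Tim3-KD members, with a ratio of 0.160 (0.136 to 0.188). A joint feature of Cxcl2 and Cxcl3 held more UMIs than Cxcl3 alone, 1114 in Ctrl and 912 in Tim3-KD, with a ratio of 0.533, and both features together gave a ratio of 0.380, so the size for Cxcl3 is uncertain. Ptgs2, the inducible cyclooxygenase, was at 63.3 and 14.6 CPM, with a UMI in 8.66% and 2.21% of thinned members. In stefin-low cells both were lower in Tim3-KD too, at log2 ratios of -2.01 for Cxcl3, against -2.64 in members, and of -2.05 for Ptgs2, against -2.12. Ccl4 was at 168 and 69.8 CPM, and G0s2, an inhibitor of lipolysis that the rule used, at 2722 and 1117 CPM.

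Both genes that were higher stood against that direction. Tnf, tumour necrosis factor, had 56.3 CPM in Ctrl members and 122 CPM in Tim3-KD members, a ratio of 2.16 (1.94 to 2.41), and was found in 8.54% and 17.1% of thinned members against 3.77% and 7.13% of lymphoid cells. Orm1, an acute phase protein, was at 30.5 and 91.4 CPM. In stefin-low cells both were higher in Tim3-KD too, Tnf at 85.6 and 139 CPM and Orm1 at 30.0 and 56.6 CPM. Over whole libraries Tnf was at 47.0 and 79.5 CPM and Orm1 at 58.5 and 149 CPM. Inflammatory genes therefore did not all differ in one direction. Ccl3, a chemokine close to Ccl4, had a ratio of 1.24 (1.13 to 1.36) and Csf1, the growth factor of macrophages, one of 0.996 (0.923 to 1.07).

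Immediate early and stress genes are transcribed within minutes of a stimulus or of handling. In Tim3-KD 8 of 33 were lower, against 2.77% of all genes, and none higher, with a median of -0.64. Between 5 and 9 were lower, and none higher, under the other choices of cells, thresholds and the mean over cells. Socs3, a feedback inhibitor of cytokine receptors, was at 90.7 and 26.8 CPM, Gadd45a, a stress-response gene, at 229 and 78.7 CPM, and Fos at 388 and 172 CPM. Fos was found in 40.9% of thinned Ctrl members and 22.5% of Tim3-KD members, while the shares of lymphoid cells were 34.3% and 35.2%. In stefin-low cells it was lower in Tim3-KD too, at 666 and 346 CPM, as it was over whole libraries, 723 and 385 CPM. Over whole libraries Socs3 was at 75.4 and 26.4 CPM and Gadd45a at 123 and 53.0 CPM. Nfkbia, the inhibitor of NF-kappa-B, went the other way with 1691 and 2165 CPM. Whether the libraries were handled alike is not given in the sources used here, and its part in these values was not tested.

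Of the other low ratios, Ltb, lymphotoxin beta, had 288 CPM in Ctrl members and 67.3 CPM in those of Tim3-KD. It was lower in Tim3-KD also in stefin-low cells, at a log2 ratio of -2.45, and in whole libraries, 171 and 30.5 CPM, and it was found in 46.7% and 9.98% of thinned lymphoid cells, which make it. In members it was found in 34.6% and 10.2%, so in Tim3-KD the members' share was near that of lymphoid cells. Snai1, a transcription factor, was at 54.6 and 12.9 CPM, and Cbr3, a carbonyl reductase, at 40.0 and 11.7 CPM. Trim5 was at 57.7 and 7.25 CPM and has near-identical copies in the mouse genome, so its level is uncertain. H2-Ab1, an MHC class II gene, was at 15.9 and 5.35 CPM and Ccl24, a chemokine of eosinophils, at 11.1 and 3.13 CPM, levels at which few cells decide. These last 2 genes were higher in Tim3-KD in stefin-low cells, by 1.19 and 0.29 on the log2 scale, while the other 8 of the 10 lowest were lower there too.

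**Figure D4:**
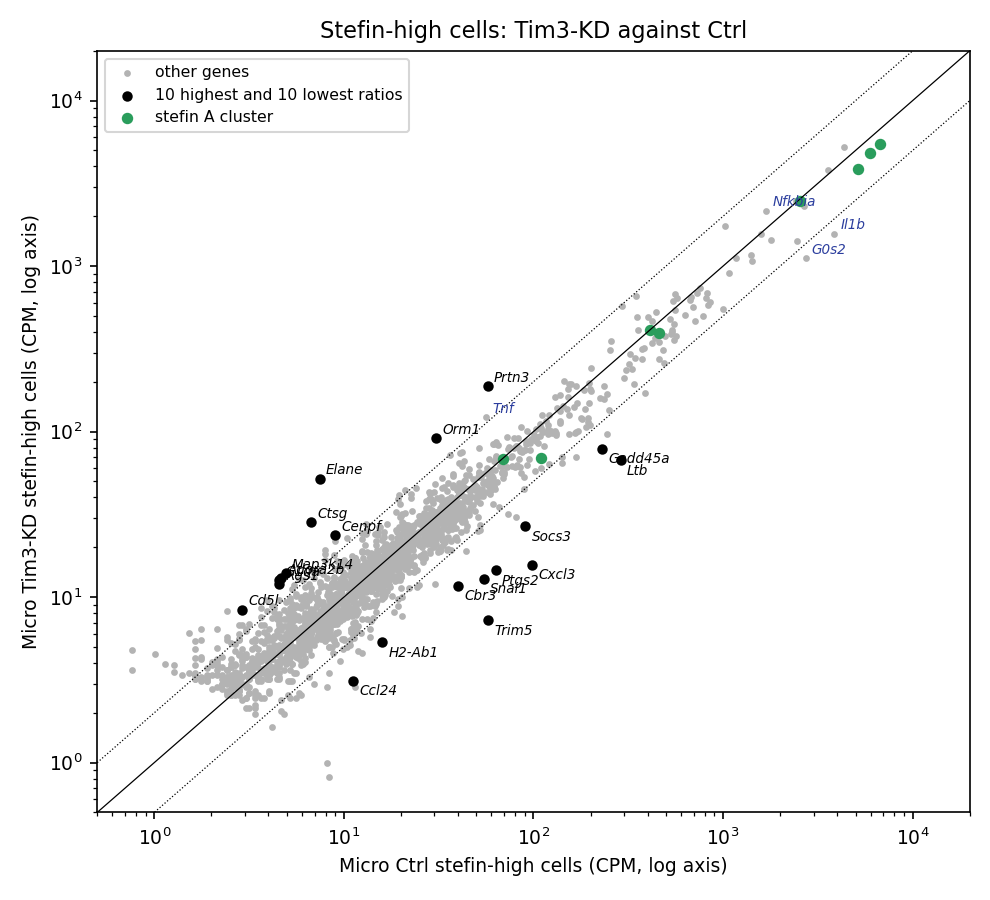
Level of each gene in stefin-high cells of micrometastasis, Ctrl against Tim3-KD (CPM, log axes), 1 library each; dotted lines mark 2-fold, black points the 10 highest and 10 lowest ratios and green points the stefin A cluster. Il1b lies below the lower dotted line at 3863 and 1572 CPM, Tnf above the upper one at 56.3 and 122 CPM, and the stefins near the diagonal.

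The stefins themselves were close between the libraries. None of the 8 differed by 2-fold, all had ratios below 1, and their median log2 ratio was -0.26. Csta3 had the lowest ratio, 0.630 (0.572 to 0.693), while Cstdc6, at 0.992 (0.949 to 1.04), and Stfa1, at 0.989 (0.886 to 1.10), had intervals that include 1. The choice of cells on stefin scores bears on these values. Growth factor, chemokine and adhesion receptors had 0 of 12 genes past 2-fold and a median of -0.22, or -0.18 over the 10 without Cxcr2 and Csf3r, which the rule used. Cxcr2 was at 784 and 498 CPM. Sensing receptors had 0 of 16 and a median of -0.42, with 15 of the 16 ratios below 1. Cd14, the co-receptor for endotoxin, was at 2455 and 1415 CPM and Clec7a, which binds fungal glucan, at 340 and 194 CPM. Interferon-stimulated genes had 1 of 33 lower, near the 2.77% of all genes, and a median of -0.08. That gene was Cxcl10, with 24.8 and 11.8 CPM, of which 10 cells held 76.5% of the Ctrl UMIs. In stefin-low cells it was at 18.0 and 70.4 CPM, and with a stefin threshold of 0.25 or the rule on recovered UMIs none of the 33 was lower. Hypoxia and glycolysis genes had 2 of 13 lower, against 2.77% of all genes. These were Hilpda, a lipid droplet protein, at 142 and 64.8 CPM and Pfkfb3, an activator of glycolysis, at 51.0 and 25.2 CPM. With a stefin threshold of 0.25, without cells of a high doublet score or relative to the trimmed mean, 1 of the 13 was lower. With the rule on recovered UMIs 1 was lower and 1 higher.

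Granule genes are given in the order in which the granules are made. Of 7 azurophil granule genes 4 were at least 2-fold higher in Tim3-KD and none lower, against 3.52% of all genes higher. Their median was 1.26. Of 7 secondary granule genes 1 was higher, with a median of 0.77. That gene, Fcnb, and also Ltf and Cebpe are genes of the rule, and the other 4 had none past 2-fold and a median of 0.22. The 6 genes listed under tertiary granules and secretory vesicles had none past 2-fold and a median of -0.11. Elane, neutrophil elastase, had 7.47 and 52.0 CPM, Prtn3, another serine protease, 57.5 and 188 CPM, and Ctsg, cathepsin G, 6.71 and 28.2 CPM. In Tim3-KD, 10 of the 1087 members held 87.6% of the Elane UMIs and 81.8% of those of Prtn3. Thinned, Elane was found in 1.54% and 1.84% of members and in 1.26% and 2.61% of lymphoid cells, which is the level of background. By the mean over cells of UMIs per 10000 the log2 ratios of Elane and Prtn3 were 0.90 and 0.55, under 2-fold, and 1 of the 7 azurophil genes was higher. With the rule applied to recovered UMIs, none of the 7 was higher and the median was 0.29. With a stefin threshold of 1, 5 of the 7 azurophil and 4 of the 7 secondary granule genes were higher, with medians of 1.16 and 1.09. Over whole libraries Elane was at 1118 and 2445 CPM and Prtn3 at 2190 and 4728 CPM, and in stefin-low cells both were lower in Tim3-KD, Elane by 1.48 on the log2 scale.

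Ltf, lactoferrin, which the rule limits, had 1028 and 1754 CPM, and 10 cells held 53.3% and 22.9% of it. Chil3, a chitinase-like protein, was at 348 and 655 CPM and Serpinb1a, an inhibitor of azurophil granule proteases and on the azurophil list, at 292 and 575 CPM. Ly6g and Cd177 were at ratios of 1.12 (1.08 to 1.17) and 1.20 (1.16 to 1.25). The precursor marker sum moved with these values, 1204 and 2219 CPM, and its part was not tested. The share of members with a doublet score over 0.15, 5.10% and 11.0%, moved with them too. Without those cells the log2 ratio of Elane was 1.60 in place of 2.79, that of Ctsg 1.29 in place of 2.06 and that of Prtn3 0.95 in place of 1.71, and 3 of the 7 azurophil genes were higher, with a median of 0.95.

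All 18 cell cycle genes had ratios above 1, 4 of them at 2-fold or more, against 3.52% of all genes, with a median of 0.66. Cenpf, a protein of the kinetochore, was at 8.99 and 23.8 CPM and Mki67, the proliferation marker, at 21.0 and 44.2 CPM. Few cells carried them: 10 cells held 91.5% of the Cenpf UMIs in Ctrl and 79.2% in Tim3-KD. With the rule on recovered UMIs the direction turned, with 0 of the 18 higher, 6 lower and a median of -0.67, and with a stefin threshold of 1, 15 were higher. Of 13 monocyte and macrophage genes 5 were higher, against the same 3.52% of all genes, with a median of 0.82. They included C1qa, at 4.56 and 12.6 CPM, and Cd5l, a secreted protein of macrophages, at 2.91 and 8.40 CPM, and 10 cells held 82.4% and 86.3% of their Tim3-KD UMIs. With a stefin threshold of 1, or without cells of a high doublet score, both were lower in Tim3-KD, and of the 13 genes 0 were higher and 2 and 3 lower. Rgs1, a regulator of G protein signalling, was at 4.56 and 12.0 CPM, with 90.4% of the Tim3-KD UMIs in 10 cells. Map3k14, the NF-kappa-B-inducing kinase, at 4.94 and 13.9 CPM, and Adora2b, an adenosine receptor, at 4.68 and 13.1 CPM, completed the 10 highest ratios. Of other lineages, 2 of 4 dendritic and MHC class II genes were lower, 1 of 2 B cell genes was lower, 1 of 2 T and NK genes was higher, 1 of 5 platelet, endothelial and hepatocyte genes was higher, and Hdc, the only basophil gene tested and one of the rule, was past 2-fold in neither direction.

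**Figure D5:**
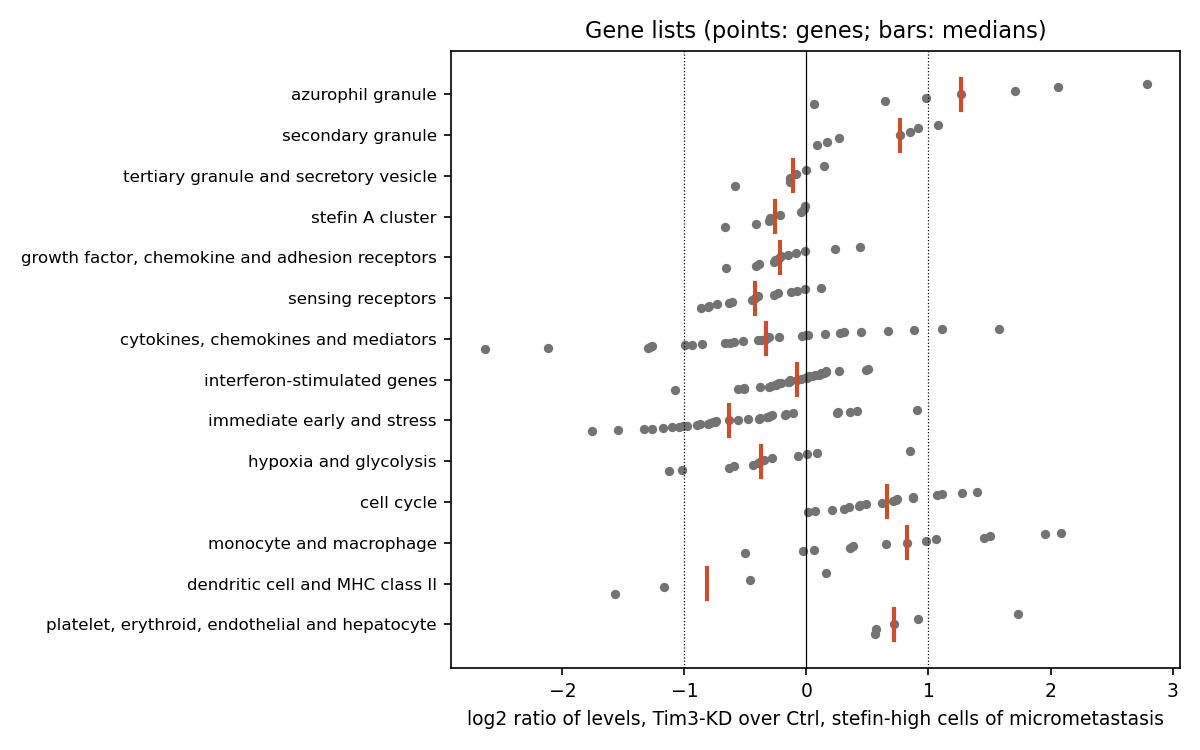
Log2 ratio of levels, Tim3-KD over Ctrl, in stefin-high cells of micrometastasis for each gene (points) of the lists with at least 4 tested genes, with the median of each list as a bar and dotted lines at 2-fold. The medians run from -0.81 for dendritic and MHC class II genes and -0.64 for immediate early genes to 1.26 for azurophil granule genes.

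In macrometastasis, by the same thresholds on that site's own scores, 598 of 4913 Ctrl cells, 12.2%, and 912 of 5502 Tim3-KD cells, 16.6%, were stefin-high. They were 48.3% and 54.4% of the mature neutrophils there. Site and day differ together and the matrices were scaled apart, so site, day and the level of the thresholds cannot be told apart. Over the 1116 genes of both matrices that were tested, 16.8% were at least 2-fold higher in macrometastasis in both Ctrl and Tim3-KD, 188 genes, and 3.49% lower, 39 genes, with medians of 0.77 and 0.64. Relative to these medians 31 were higher and 81 lower. With 1 rule for both sites, added after seeing the data, 88 were higher and 8 lower, and 85 of these 96 were among the 227.

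None of the 8 stefins was at least 2-fold lower or higher in macrometastasis in both comparisons. Relative to the medians the log2 ratios were -2.02 and -1.58 for Cstdc4, a gene of the rule, and -1.60 and -1.01 for Stfa2l1, and nothing is read from them, since the cells of each site were chosen on stefin scores scaled apart. Ranked by the library with the smaller ratio, Arrdc4, an arrestin-like gene that follows glucose, came first, 2.94 and 3.09 above the medians on the log2 scale. The metallothioneins Mt1 and Mt2, which bind zinc and copper, came next, with Mt1 at 88.6 and 77.9 CPM in micrometastasis and 1578 and 897 CPM in macrometastasis. Alb, albumin, a hepatocyte gene, was at 7.47 and 12.4 CPM and at 90.8 and 60.5 CPM. Rgcc, Jmy, Zfp52 and F10 completed the 8 highest, and all 8 remained above their medians under the 1 rule.

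The 8 lowest were cell cycle or precursor genes, Birc5, H1f5, Pclaf, Top2a, Ube2c, Rrm2, Fcnb and Cebpe. Of 15 cell cycle genes 13 were lower in macrometastasis, as were 6 of 7 azurophil and 6 of 7 secondary granule genes, against 3.49% of all genes. Fcnb, Ltf and Cebpe, genes of the rule with thresholds scaled apart per site, are 3 of those 6. Under the 1 rule 2 of 6 azurophil and 1 of 6 secondary granule genes were lower, against 0.755% of all genes, and 2 cell cycle genes had enough UMIs, neither of them lower. Ube2c, an enzyme of mitosis, was at 40.8 and 74.7 CPM in micrometastasis and 1.39 and 0.648 CPM in macrometastasis, and 10 cells held 94.1% and 77.4% of its UMIs in micrometastasis. Under the 1 rule its log2 ratios of levels, not set against the medians, were -1.22 and -0.09. On the same scale Top2a was at -0.58 and 0.66, Fcnb at -0.04 and -1.97 and Cebpe at -0.62 and -0.30. The ratios of Birc5, H1f5, Pclaf and Rrm2 stayed negative in both comparisons. Immediate early and stress genes were higher in 11 of 27, against 16.8% of all genes, and under the 1 rule in 5 of 27, against 8.3% of all genes.

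Between the Tim3-KD and Ctrl members of macrometastasis, 3.6% of 1610 genes were at least 2-fold higher and 5.28% lower, with a median of -0.20. Tnf had 193 and 88.3 CPM, and Socs3 at 119 and 242 CPM, each in the other direction than in micrometastasis.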

How the data were processed

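The deposited values were scores: per the labels and methods, the authors trimmed reads (Trim Galore 0.4.3), mapped them with STAR 2.7.7a to GRCm38, counted UMIs, removed doublets with scrublet and scaled the variable genes of each site. Each of the 2669 micrometastasis features had a mean near 0, and scores were capped at 10. The values showed that a covariate per cell had been regressed out, taken here as its total UMIs. The scores were inverted to UMIs, 99.9999% of them within 0.05 of a whole number and 0.160% capped, which are lower bounds. The recovered total was whole in 88.0% of the shallower cells. Neither was checked against raw counts, and every level rests on this step. The matrix held 12.7% and 11.2% of the members' 7900880 and 12142300 UMIs, so most genes were not analysed here. CPM are over all UMIs. Genes with at least 50 UMIs in the sums were compared, and "higher" or "lower" counts mean a ratio of at least 2 or at most 0.5. The inversion and the intervals were tested on simulated data.

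Named genes were those of the rule, those of fixed lists, and the 10, 12 or 8 of highest and of lowest ratio per comparison with at least 100 UMIs, 0.5 added to each sum. Members and lists were chosen with earlier results of these data known. Thinning took 1500 UMIs per cell. Lymphoid cells were taken by B or T cell genes. Alternatives changed thresholds, cells kept, scaling and the minimum. Used were Python 3.11.15, numpy 2.4.6, scipy 1.17.1, pandas 2.3.3 and scikit-learn 1.9.0.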

Additional observations from a re-analysis of the deposited data

Results flagged for a closer look

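Of 1094 genes with enough UMIs at both sites, 16 differed between Tim3-KD and Ctrl members by at least 2-fold in opposite directions, 11 of them higher in micrometastasis and 5 lower, while 8 went the same way at both sites. Given here are the 11 of the 16 that are on the gene lists or among the named genes. The difference between the sites was not tested, with 1 library per group, and the sites also differ in day. Values are log2 ratios of Tim3-KD over Ctrl, micrometastasis first, and the median of all genes was -0.05 and -0.20. Cxcl3 (-2.64 and 1.12), Snai1 (-2.08 and 1.68), Socs3 (-1.76 and 1.02) and G0s2 (-1.28 and 1.78), a gene of the rule, were lower in Tim3-KD in micrometastasis and higher in macrometastasis. Tnf (1.11 and -1.13), Orm1 (1.58 and -1.14) and Rgs1 (1.40 and -1.72) were the reverse. So were the Kupffer cell genes C1qa (1.47 and -1.47), C1qb (1.08 and -1.44), C1qc (2.00 and -1.44) and Cd5l (1.53 and -1.04), of which 10 cells held most UMIs in Tim3-KD micrometastasis. In micrometastasis Cd5l and C1qa were lower in Tim3-KD with a stefin threshold of 1 (-0.80 and -0.63) and without cells of a high doublet score (-0.59 and -0.52), and there Rgs1 was at 0.64, so the opposite direction of Cd5l and C1qa was not seen under these.

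The matrix of micrometastasis also held features that join several gene names, which entered none of the counts of genes. Of 33 with at least 50 UMIs in the members, 10 had all of them in 1 library, while no single-gene feature did.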

How the results depend on the processing

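No paired analysis was possible because each group was 1 library. The difference in the share of all cells was 6.18 points with a neutrophil threshold of 0.2, against 4.63 points. Counts of genes called between Tim3-KD and Ctrl were 21 higher and 27 lower with a minimum of 200 UMIs and 238 and 150 with no minimum, by construction of the filter. Against stefin-low cells, 56 and 708 genes were lower under the same 2 minimums, and 18 were higher and 83 lower relative to the trimmed mean. Of the calls between libraries, 55.9% were higher, against 43.8% with a minimum of 200 UMIs. Between sites, 227 genes differed, 96 under 1 rule for both sites and 177 with a stefin threshold of 1, both chosen after seeing the data. Cd5l and C1qa turned from higher to lower in Tim3-KD, at log2 ratios of -0.80 and -0.63 with a stefin threshold of 1 and of -0.59 and -0.52 without cells of doublet score over 0.15. The cause was not tested. Without those cells Prtn3 (0.95) and Rgs1 (0.64) were under 2-fold. The other 50 values of main results stayed within 1.5 times for counts or within the counting interval for shares, and 85 of 100 values of named genes kept their direction, their side of 2-fold and their counting interval. Of the genes called, 43 to 66 of the 66 higher and 39 to 52 of the 52 lower remained past 2-fold. Cell cycle genes turned with the rule on recovered UMIs, from a median of 0.66 to -0.67. Depth limits genes under about 10 CPM. Few cells also decided some genes at higher levels, such as Prtn3 at 188 CPM in Tim3-KD members, with 81.8% of its UMIs in 10 cells. Counting error does not cover the spread between mice.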
